A study of Mus musculus with 60 samples.

Results

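The genes of GABA synthesis, breakdown and transport with the symbols Gad1, Gad2, Abat, Aldh5a1, Slc32a1 and Slc6a11 were followed through 60 RNA-seq libraries of mouse brain. They were chosen by symbol, and all 6 were found among the 21999 genes of the deposited tables. Each of 20 mice gave 1 library of the prefrontal cortex (PFC), 1 of the striatum and 1 of the hippocampus, and there were 5 mice in each of 4 groups: wild-type (WT) mice on a normal diet, WT mice on a diet lacking vitamin B6 (VB6), Glo1 knockout (KO) mice on the normal diet and Glo1 KO mice on the lacking diet. The normal diet held 1.4 mg of VB6 per 100 g and the lacking diet 5 µg per 100 g, and the diets ran from 8 to 12 weeks of age. The strain and sex of the mice and the way Glo1 was disrupted are not given in the sources used here.

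GABA, the main inhibitory transmitter of the brain, is made from glutamate by 2 glutamate decarboxylases, encoded by Gad1 and Gad2. It is packed into synaptic vesicles by the vesicular transporter Slc32a1, taken up by glia through the plasma membrane transporter Slc6a11, converted to succinic semialdehyde by the transaminase Abat, and oxidised to succinate by the dehydrogenase Aldh5a1. The products of Gad1, Gad2 and Abat use pyridoxal phosphate, the active form of VB6, as cofactor, and messenger RNA levels say nothing of their activity. Medium spiny neurons, the projection neurons of the striatum, are GABAergic, whereas most neurons of the cortex and hippocampus are excitatory and GABA is made there by interneurons.

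In GENCODE M21 (GRCm38, the mm10 build), Gad1 lies on chromosome 2 at 70553072-70602014 and Gad2 on the same chromosome at 22622205-22693874, both on the plus strand. Abat lies on chromosome 16 at 8513429-8621568 (plus strand) and Aldh5a1 on chromosome 13 at 24907579-24937661 (minus strand). Slc32a1 lies on chromosome 2 at 158610767-158615748 and Slc6a11 on chromosome 6 at 114131241-114249952, both on the plus strand. Of the exons of Slc32a1, 24.9% of the bases lie opposite exons of the antisense RNA Gm14205. Of those of Aldh5a1, 14.1% lie opposite the antisense RNA 4932702P03Rik and 3.59% opposite the noncoding RNA 9330162012Rik. Whether the counting used strand is not given in the sources used here, so that reads of these pairs may not be told apart and the levels of Slc32a1 and Aldh5a1 are uncertain to that extent; the other 4 genes overlap no exon of another gene. Of the 75-base stretches of Gad1 transcripts, 0.467% also occur in its pseudogene Gad1-ps.

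Promoter sequences are shown for 3 genes of GABA neurons that were higher in the striatum, and for Slc6a11, which was lower there. RefSeq promoter entries (build GRCm38.p6) were found for 5 of the 6 genes, all but Abat. The 250 bases before each start, all on the plus strand, are printed 5′ to 3′, with capitals for matches to 5 motifs searched on both strands: the TATA box (TATAAA), the CCAAT box (CCAAT), the GC box (GGGCGG), a homeodomain site (TAATTA) and the cAMP response element (TGACGTCA).
Gad1, chr2:70561879-70562128: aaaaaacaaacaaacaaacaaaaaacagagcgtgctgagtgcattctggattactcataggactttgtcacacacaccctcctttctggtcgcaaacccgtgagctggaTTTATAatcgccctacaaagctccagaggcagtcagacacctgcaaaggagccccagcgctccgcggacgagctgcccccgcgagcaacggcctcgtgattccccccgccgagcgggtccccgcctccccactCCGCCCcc
Gad2, chr2:22622077-22622326: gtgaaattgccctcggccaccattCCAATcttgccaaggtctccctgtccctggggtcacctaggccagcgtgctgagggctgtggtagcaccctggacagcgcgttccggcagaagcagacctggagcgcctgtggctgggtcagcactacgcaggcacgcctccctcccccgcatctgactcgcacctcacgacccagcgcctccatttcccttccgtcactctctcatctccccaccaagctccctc
Slc32a1, chr2:158610508-158610757: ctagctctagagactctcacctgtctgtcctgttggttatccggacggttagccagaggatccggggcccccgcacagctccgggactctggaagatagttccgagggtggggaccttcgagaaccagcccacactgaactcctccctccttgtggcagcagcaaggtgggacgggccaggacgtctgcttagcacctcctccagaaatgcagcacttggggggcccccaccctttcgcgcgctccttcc
Slc6a11, chr6:114130991-114131240: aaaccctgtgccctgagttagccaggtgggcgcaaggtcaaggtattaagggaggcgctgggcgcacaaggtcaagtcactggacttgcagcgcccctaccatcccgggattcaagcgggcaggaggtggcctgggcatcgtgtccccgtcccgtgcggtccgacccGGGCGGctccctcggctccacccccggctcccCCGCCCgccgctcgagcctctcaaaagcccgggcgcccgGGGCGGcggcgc
The RefSeq starts used for Gad1 and Gad2 lie inside the GENCODE spans of these genes, so that the Gad1 window lies wholly and the Gad2 window partly within the annotated gene. The Gad1 window held 1 TATAAA on the opposite strand, whose first printed base lay 141 bases before the start, and 1 GGGCGG, 8 bases before it, also on the opposite strand. The Gad2 window held 1 CCAAT, 226 bases before the start. The Slc6a11 window held 3 GGGCGG, at 83, 51 (on the opposite strand) and 12 bases before the start, and the Slc32a1 window none of the 5 motifs. The Aldh5a1 window, not printed, held 1 CCAAT. No 2 matches overlapped. Among 32851 RefSeq promoter windows of the same length, 12.4% held TATAAA, 33.8% CCAAT, 32.7% GGGCGG, 4.84% TAATTA and 1.55% TGACGTCA, so that the first 3 of these are common among promoters. CG dinucleotides numbered 17 in Gad1, 13 in Gad2, 12 in Slc32a1, 17 in Aldh5a1 and 25 in Slc6a11, against a median of 6 over all windows. In the same order, 76.5%, 68.5%, 66.5%, 76.5% and 89.3% of all windows held fewer, so that such counts are not rare. A match describes letters only. The windows of Gad1, Gad2 and Slc32a1 had no motif of the 5 in common.

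Libraries held between 7640047 and 13928265 counts, with RNA integrity numbers (RIN) of 7.6 to 9.3. The labels gave VB6 levels of 58.3 to 78.1 ng/µl for mice on the normal diet and 2.25 to 5.63 ng/µl for mice on the lacking diet. Glo1 had 0 to 10 counts in the KO libraries and 299 to 734 in the WT libraries. All 30 KO libraries were labelled batch 1 and all 30 WT libraries batch 2, so that genotype and batch cannot be told apart in any comparison of KO with WT. The regions matched their labels: all 11 markers of medium spiny neurons in the table were higher in the striatum than in either other region, and Prox1, a marker of dentate granule neurons, was at 32.0 RPKM (reads per kilobase of exon, scaled to the reads of the library) in the hippocampus against 2.96 in the PFC and 4.03 in the striatum. In 8 hippocampal libraries the 5 choroid plexus markers summed to between 104 and 1248 RPKM, against 5.52 to 55.4 in the other 12.

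The striatum differed from both other regions in all 6 genes. Gad1, Gad2, Abat, Aldh5a1 and Slc32a1 were higher there and Slc6a11 was lower, at an adjusted p under 0.05 (edgeR's quasi-likelihood test, all 60 libraries, Benjamini-Hochberg adjustment over all genes tested). Against the PFC, 5 of the 6 were higher and 1 lower, where 69.9% of all 13930 genes tested passed (35.9% higher and 34% lower). Against the hippocampus the members' counts were also 5 higher and 1 lower, where 66.4% of genes passed (33.6% higher and 32.9% lower). Of the genes that passed against the hippocampus 50.5% were higher, and 38.8% on library totals without TMM (trimmed mean of M-values) factors, where the members' counts were the same. With such shares a call alone says little. The median log2 fold change of the 6 was 1.25 against the PFC and 1.13 against the hippocampus, while the median over all genes tested was 0.014 and 0.0051.

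Of the 2 glutamate decarboxylases, Gad2 differed more. Over 20 libraries a region, Gad2 ranged from 164 to 218 RPKM in the striatum with a median of 181, from 49.9 to 64.3 in the PFC with a median of 55.9, and from 50.7 to 70.2 in the hippocampus with a median of 55.3. Every striatal library stood above every library of the other regions, whose ranges overlapped each other. The log2 fold change of Gad2 was 1.75 (SE 0.0459, 3.36-fold) against the PFC and 1.78 (SE 0.0459, 3.44-fold) against the hippocampus, with edgeR adjusted p of 1.77e-40 and 4.87e-41. Gad1 ranged from 87.4 to 104 RPKM in the striatum (median 96.0), from 38.2 to 45.3 in the PFC (median 41.8) and from 42.7 to 55.6 in the hippocampus (median 48.6). Its striatal libraries again stood above all others. Gad1 was 2.35-fold higher in the striatum than in the PFC (log2 fold change 1.24, SE 0.0342) and 2.08-fold higher than in the hippocampus (1.06, SE 0.0341; edgeR adjusted p of 2.80e-39 and 4.93e-36).

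The breakdown enzymes parted. Abat, the transaminase, ranged from 54.8 to 75.4 RPKM in the striatum (median 70.9), from 23.5 to 33.6 in the PFC (median 28.8) and from 25.8 to 35.6 in the hippocampus (median 31.2), so that the striatum did not overlap the other regions. It was 2.42-fold higher in the striatum than in the PFC (log2 fold change 1.27, SE 0.0341) and 2.30-fold higher than in the hippocampus (1.20, SE 0.0340), close to the folds of Gad1. Aldh5a1, the next enzyme, ranged from 23.1 to 28.4 RPKM in the striatum (median 26.4), from 18.6 to 21.5 in the PFC (median 19.99) and from 21.3 to 28.1 in the hippocampus (median 23.9). Its striatal libraries stood above all prefrontal ones but overlapped the hippocampal ones. The differences of Aldh5a1 were small, 1.32-fold against the PFC (log2 fold change 0.40, SE 0.0261) and 1.15-fold against the hippocampus (0.20, SE 0.0260), and passed the test in both cases (edgeR adjusted p of 4.31e-21 and 5.78e-10). Against the hippocampus the log2 fold change of Aldh5a1 was 0.12 (SE 0.0271) on library totals without TMM factors, and passed there too. The ratio of Aldh5a1 to Abat RPKM was therefore lower in the striatum, with a mean of 0.383 ± 0.0263 (SD, n = 20), than in the PFC (0.703 ± 0.0561) or hippocampus (0.767 ± 0.0496), and its striatal range, 0.349 to 0.447, lay below the ranges of both other regions.

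The 2 transporters went opposite ways. Slc32a1, which loads vesicles in GABA neurons, had the largest fold of the 6: it ranged from 16.3 to 34.1 RPKM in the striatum (median 22.7), from 4.601 to 7.89 in the PFC (median 6.44) and from 3.92 to 7.44 in the hippocampus (median 5.90). No striatal library overlapped the other regions. Slc32a1 was 3.65-fold higher in the striatum than in the PFC (log2 fold change 1.87, SE 0.0644) and 4.21-fold higher than in the hippocampus (2.08, SE 0.0651; edgeR adjusted p of 1.82e-34 and 1.35e-36). Slc6a11, the glial transporter, ranged from 6.998 to 13.7 RPKM in the striatum (median 10.4), from 13.3 to 20.04 in the PFC (median 15.9) and from 14.2 to 20.4 in the hippocampus (median 17.9). The striatum lay below the hippocampus without overlap and met the lowest prefrontal libraries. Slc6a11 was 1.55-fold lower in the striatum than in the PFC (log2 fold change -0.63, SE 0.0476) and 1.64-fold lower than in the hippocampus (-0.71, SE 0.0476; edgeR adjusted p of 3.57e-18 and 1.49e-20). RPKM ranges did not overlap for 5 of the 6 genes between striatum and PFC (18.3% of all genes tested) and for 5 of the 6 between striatum and hippocampus (16.2%).

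**Figure D1:**
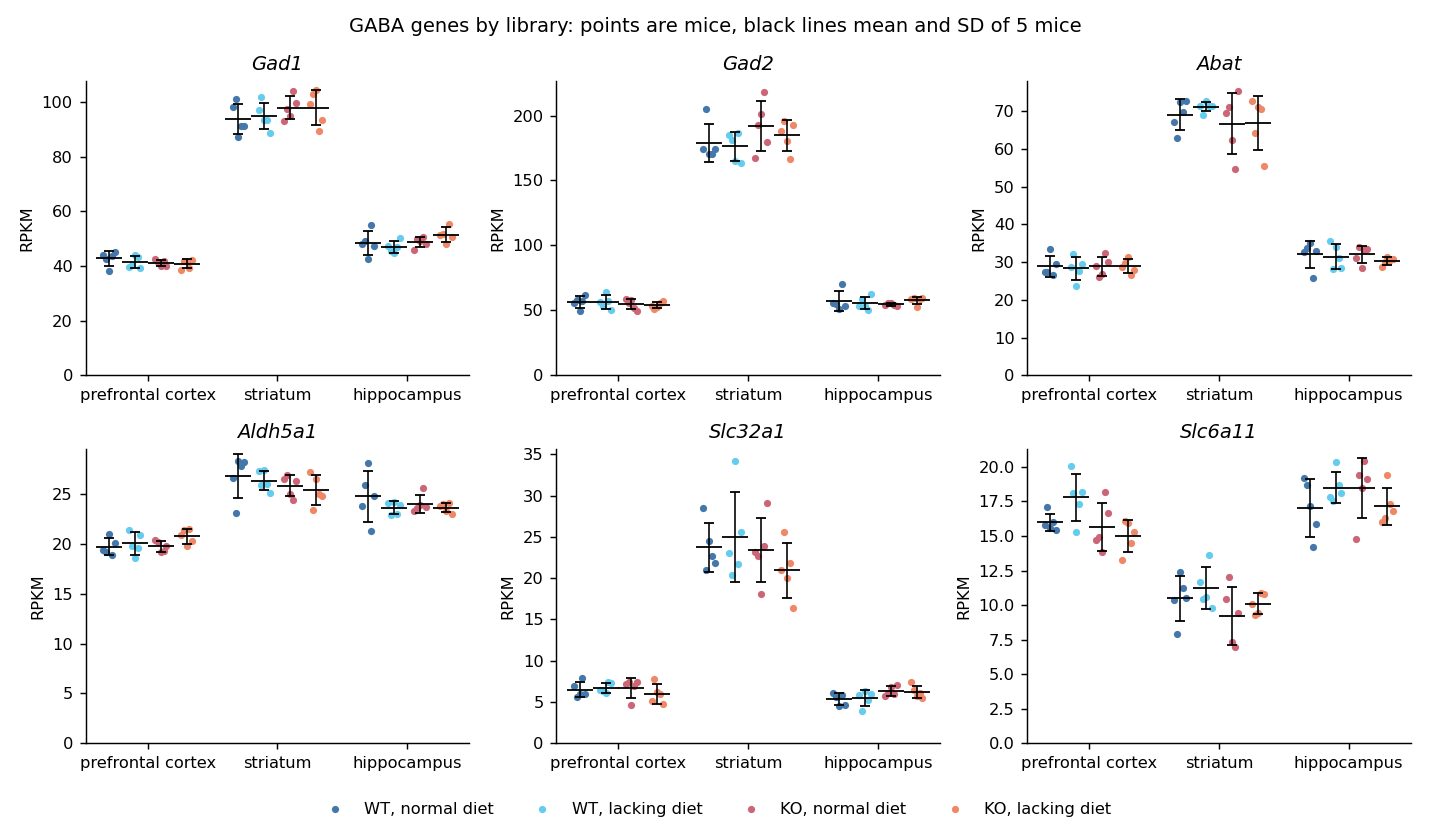
Deposited RPKM of the 6 genes in each of the 60 libraries, by region and by genotype and diet (colours); each point is 1 mouse and black lines give the mean and SD of 5 mice, on linear axes from 0. The striatal points of Gad1, Gad2, Abat and Slc32a1 lie above all others, those of Slc6a11 lie lower than in the hippocampus and overlap the lowest of the PFC, and within a region the 4 groups overlap.

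Markers of cell types differed between the regions too, some higher and some lower in the striatum. The 11 medium spiny neuron markers summed to 2551 to 3532 RPKM in the striatum, 80.1 to 102 in the PFC and 40.4 to 64.1 in the hippocampus, and all 11 were higher in the striatum, by a median log2 fold change of 4.91 against the PFC and 5.67 against the hippocampus. The 10 interneuron markers had sums of 183 to 332 RPKM in the striatum, 353 to 574 in the PFC and 203 to 351 in the hippocampus: 7 of 10 were lower in the striatum than in the PFC and 2 higher. By mean RPKM, Reln, Lamp5, Npy and Lhx6 were higher in the striatum than in the hippocampus, and the other interneuron markers were lower. The 8 astrocyte markers, which belong with the main cell type known to express Slc6a11, summed to 272 to 341 RPKM in the striatum, 308 to 415 in the PFC and 461 to 554 in the hippocampus, with 6 of 8 lower in the striatum than in the PFC, 1 higher, and 6 of 8 lower than in the hippocampus. The 8 oligodendrocyte markers summed to 854 to 1143 RPKM in the striatum, 276 to 543 in the PFC and 623 to 1058 in the hippocampus. Sums of the 8 excitatory neuron markers were 177 to 317 RPKM in the striatum, 734 to 887 in the PFC and 839 to 1027 in the hippocampus. By mean RPKM each of them was lower in the striatum than in either other region, except Prox1 against the PFC. Drd2 and Adora2a, markers of medium spiny neurons, were near 0 in the PFC at 0.593 and 0.262 RPKM. The part of these cell types in the differences of the 6 genes was not tested. In these tissue samples a larger share of a cell type and more RNA per cell cannot be told apart.

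Between the hippocampus and the PFC the 6 genes were close, and 3 of them passed the test (2 higher and 1 lower in the hippocampus), where 59.3% of genes did (30.2% higher and 29.1% lower). Gad1 was 1.13-fold higher in the hippocampus (log2 fold change 0.18, SE 0.0339, edgeR adjusted p of 9.00e-06) and Aldh5a1 1.15-fold higher (0.20, SE 0.0261, adjusted p of 1.42e-09). Slc32a1 was 1.15-fold lower (-0.21, SE 0.0673, adjusted p of 0.00647). The values of Gad2 (-0.03, 95% interval -0.12 to 0.05), Abat (0.07, 0.0029 to 0.14) and Slc6a11 (0.09, -0.0084 to 0.18) did not pass, with edgeR adjusted p of 0.522, 0.0668 and 0.112. None of the 6 had RPKM ranges without overlap between these regions, against 10.9% of all genes. The calls of Abat, Slc32a1 and Slc6a11 depended on the scaling: on library totals without TMM factors, edgeR adjusted p was 0.00434 for Abat, 0.0685 for Slc32a1 and 0.0138 for Slc6a11, and Gad2 changed sign. On that scale 61.4% of the genes that passed were higher in the hippocampus, against 50.9% with TMM. Abat also passed when WT mouse 226, 259 or 286 was left out (edgeR adjusted p between 0.0287 and 0.0478). Without the 8 hippocampal libraries rich in choroid plexus markers, the same 3 genes passed in the same directions, with Slc32a1 at -0.23 (SE 0.0813).

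**Figure D2:**
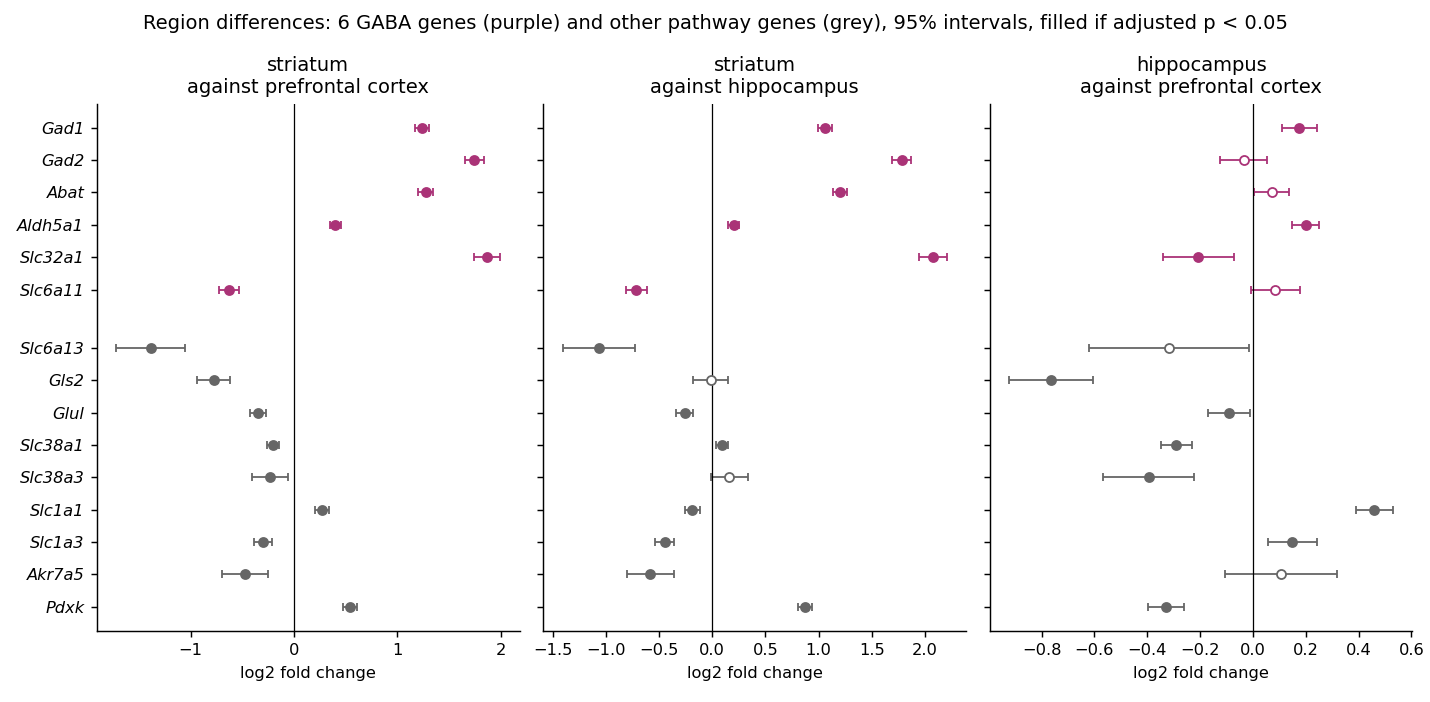
Log2 fold changes between regions from the edgeR fit of 60 libraries, with 95% intervals, for the 6 genes (purple, top) and 9 other genes of GABA and glutamate metabolism and VB6 handling that the text names (grey); filled points passed an adjusted p of 0.05, and the 3 panels have different horizontal scales. In the 2 striatal panels 5 of the 6 genes lie to the right of 0, with Aldh5a1 closest to it, and Slc6a11 lies to the left; of the grey points Pdxk lies farthest right among those that passed, at 0.54 and 0.87.

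The other genes of GABA, glutamate and VB6 handling were more often lower than higher in the striatum. Of 20 such genes tested, 2 were higher and 12 lower in the striatum than in the PFC (median log2 fold change -0.14), 3 were higher and 8 lower than in the hippocampus (median -0.074), and 4 were higher and 9 lower in the hippocampus than in the PFC (median -0.070). Over all genes, 35.9% were higher and 34% lower, 33.6% and 32.9%, and 30.2% and 29.1% in the same order. Counts of the 20 genes on library totals without TMM factors were not examined. Gls2, a glutaminase, which releases glutamate from glutamine, was lower in the striatum than in the PFC (-0.78, SE 0.0801). Slc6a13, a GABA transporter of the leptomeninges, was lower in the striatum at -1.38 (SE 0.167) and -1.07 (SE 0.170), from a mean of 1.09 RPKM in the PFC and 0.911 in the hippocampus, and it is itself 1 of the 5 leptomeningeal markers, all 5 of which were lower in the striatum. Akr7a5, a reductase that acts on succinic semialdehyde, was lower in the striatum at -0.48 (SE 0.111) and -0.58 (SE 0.110).

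One gene of VB6 handling was higher in the striatum than in both other regions, and so was no other of the 20 genes. Pdxk, the kinase that makes the phosphorylated forms of VB6, ranged from 28.5 to 39.6 RPKM in the striatum (median 34.1), from 20.4 to 26.1 in the PFC (median 23.9) and from 14.7 to 22.0 in the hippocampus (median 19.7). The striatal libraries stood above all others. Its log2 fold change was 0.54 against the PFC (SE 0.0337) and 0.87 against the hippocampus (SE 0.0339), and it was lower in the hippocampus than in the PFC (-0.33, SE 0.0339; edgeR adjusted p of 6.80e-22, 8.69e-32 and 6.73e-13). Between hippocampus and PFC the other largest changes of the list were those of Gls2 (-0.76, SE 0.0798), Slc1a1, a neuronal glutamate transporter (0.46, SE 0.0356), Slc38a3, a glutamine transporter of astrocytes (-0.39, SE 0.0862), and Slc38a1, a glutamine transporter of neurons (-0.29, SE 0.0291). Slc1a3, a glutamate transporter of astrocytes, was lower in the striatum than in the hippocampus (-0.45, SE 0.0458).

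On the deposited lengths, levels per kilobase put the 6 genes in a like order in the 3 regions. Gad2 was first and, in the PFC and hippocampus, Slc32a1 last. In the PFC the means were 55.5 RPKM for Gad2, 41.6 for Gad1, 28.8 for Abat, 20.1 for Aldh5a1, 16.1 for Slc6a11 and 6.47 for Slc32a1, and of neighbours in this order only Aldh5a1 and Slc6a11 overlapped. In the striatum the means were 183 for Gad2, 96.1 for Gad1, 68.4 for Abat, 26.1 for Aldh5a1, 23.3 for Slc32a1 and 10.3 for Slc6a11, and Aldh5a1 and Slc32a1 overlapped. In the hippocampus they were 56.4 for Gad2, 48.9 for Gad1, 31.5 for Abat, 24.03 for Aldh5a1, 17.8 for Slc6a11 and 5.85 for Slc32a1, and Gad2 overlapped Gad1 and Abat overlapped Aldh5a1. The order depends on the lengths used. With those of the principal transcripts Gad1 was first, at means of 94.6 in the PFC, 219 in the striatum and 111 in the hippocampus. Gad2 was then at 56.7, 187 and 57.7, and overlapped Abat in the PFC and hippocampus.

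The balance of the 2 decarboxylases shifted between regions. The ratio of Gad2 to Gad1 RPKM averaged 1.34 ± 0.0708 (SD, n = 20) in the PFC, 1.90 ± 0.115 in the striatum and 1.15 ± 0.0634 in the hippocampus. The striatal ratios, 1.73 to 2.12, stood above all others, and those of the PFC (1.22 to 1.46) and hippocampus (1.06 to 1.29) overlapped. Group means of the ratio within a region stayed between 1.32 and 1.36 in the PFC, 1.86 and 1.96 in striatum, and 1.12 and 1.19 in hippocampus. Which of the 2 genes is the higher depends on the length used. The deposited values divide by all annotated exon bases, 7639 for Gad1 and 5876 for Gad2; with the principal transcripts of 3355 and 5744 bases, the ratio was 0.600, 0.855 and 0.518 in the 3 regions in the order above, and Gad1 was the higher in all 60 libraries. The order of the regions was the same with both lengths.

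**Figure D3:**
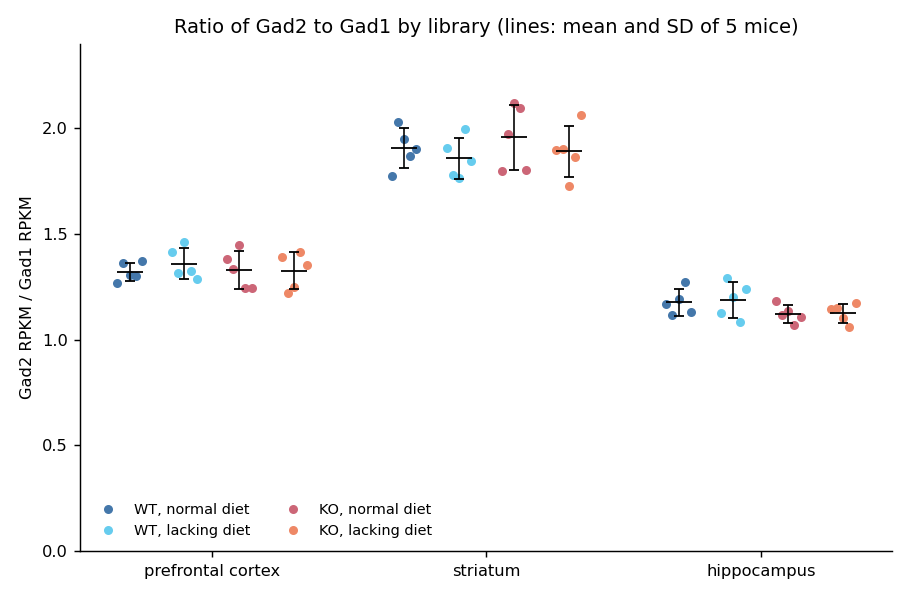
Ratio of Gad2 to Gad1 deposited RPKM in each library, by region and group (colours), with the mean and SD of 5 mice as black lines, on a linear axis from 0. Striatal ratios lie at 1.73 to 2.12, above all libraries of the other 2 regions, and the 4 groups within a region overlap.

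The diets were compared to ask whether the levels of the 6 messenger RNAs, 3 of them for VB6-dependent enzymes, differed with the supply of the vitamin. No change of the 6 genes with diet passed the test. For the diet averaged over genotypes (10 against 10 libraries a region), for the diet within WT mice, for the diet within KO mice and for the interaction of genotype and diet, 0 of 6 genes passed in each of the 3 regions, where 0% of all genes tested passed in each of these 12 comparisons (edgeR; at an unadjusted p under 0.05 the 72 tests of members held 2). Over all genes tested, the share with an unadjusted p under 0.05 ran from 1.68% to 9.45% in these comparisons. DESeq2 and limma also called 0 of the 6 in them. For the 3 enzymes that use pyridoxal phosphate, the diet averaged over genotypes gave log2 fold changes between -0.05 and 0.04 over the 3 regions, and the 95% intervals together ran from -0.18 to 0.17, that is from 0.880-fold to 1.12-fold. For all 6 genes these intervals ran from -0.25 to 0.28, the widest being those of Slc32a1 and Slc6a11. In the striatum, for example, Gad2 was at 179 ± 14.7 RPKM (SD, n = 5) in normally fed WT, 176 ± 11.2 in VB6-lacking WT, 192 ± 19.4 in normally fed KO and 185 ± 11.8 in VB6-lacking KO mice. Abat was there at 69.0 ± 4.10, 71.2 ± 1.28, 66.6 ± 8.12 and 66.8 ± 7.10 RPKM in the same order. Means of the 4 groups lay between 40.8 and 42.9 RPKM for Gad1 in the PFC, between 93.8 and 97.9 in striatum and between 46.9 and 51.5 in hippocampus. For Aldh5a1 they lay between 19.8 and 20.8, between 25.4 and 26.8, and between 23.7 and 24.8 RPKM in that order of regions. The libraries of the 4 groups overlapped for each of the 6 genes in each region.

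Between the genotypes, 0 of 6 genes passed as well. For KO against WT averaged over diets, the background was 0.673% of genes in the PFC, 0.203% in the striatum and 0.164% in the hippocampus. On the normal diet it was 0.121%, 0.0601% and 0.0299% in the same order, on the lacking diet 0.234%, 0.128% and 0.0672%, and for VB6-lacking KO against normally fed WT mice 0.28%, 0.0826% and 0.0149%. Log2 fold changes of the 6 genes in these 12 comparisons lay between -0.28 and 0.24, and 4 of the 72 tests had an unadjusted p under 0.05 (edgeR). Over all genes tested, the share with an unadjusted p under 0.05 ran from 2.43% to 14.1% in these comparisons.

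**Figure D4:**
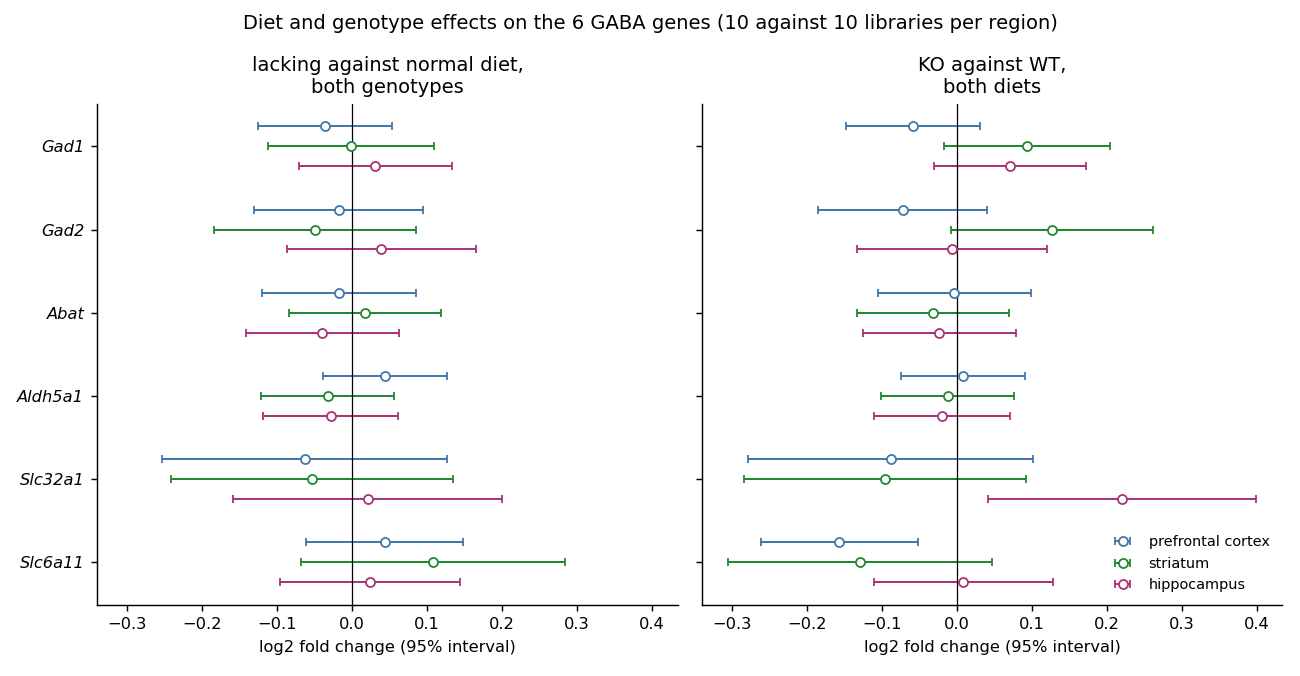
Log2 fold changes of the 6 genes for the lacking against the normal diet, averaged over genotypes (left), and for KO against WT, averaged over diets (right), in 3 regions (colours), with 95% intervals from edgeR; open points did not pass an adjusted p of 0.05. All 36 points are open and lie between -0.16 and 0.22.

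The smallest p-values were those of Slc6a11 in the PFC. Its values were 15.5, 15.6, 15.8, 16.0 and 17.1 RPKM in WT mice on the normal diet, and 15.3, 17.3, 18.1, 18.2 and 20.04 in WT mice on the lacking diet. In KO mice they were 13.9, 14.7, 14.96, 16.7 and 18.2 on the normal diet, and 13.3, 14.5, 15.3, 16.0 and 16.1 on the lacking diet. On the lacking diet 4 of 5 WT libraries stood above all KO libraries, and on the normal diet the genotypes overlapped. On the lacking diet KO against WT gave a log2 fold change of -0.28 (SE 0.0721, unadjusted p of 0.000677, edgeR adjusted p of 0.104), and averaged over diets -0.16 (SE 0.0510, 0.00469 and 0.153). The diet in WT mice gave 0.16 (SE 0.0722, unadjusted p of 0.0327) and the interaction -0.24 (SE 0.102, unadjusted p of 0.0272), both with an edgeR adjusted p of 1.00. With DESeq2 the difference on the lacking diet was -0.27 and passed (adjusted p of 0.0331); when 1 mouse was left out, edgeR's adjusted p lay between 0.0697 and 0.292.

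Slc1a3 and Glul, which handle glutamate in astrocytes, were lower in KO mice in the same region. Of the 19 other pathway genes tested in the PFC, 2 passed for KO against WT averaged over diets, both lower in KO, and 0 in the other comparisons within regions. Over all genes, 0.673% passed for KO against WT averaged over diets in the PFC, 16 higher and 73 lower in KO. All KO libraries are batch 1 and all WT libraries batch 2, so that genotype and batch cannot be told apart here. Slc1a3, a glutamate transporter of astrocytes, was at 124 to 159 RPKM in the 10 KO libraries and at 135 to 196 in the 10 WT libraries, with a log2 fold change of -0.33 (SE 0.0623, edgeR adjusted p of 0.00678). Glul, the glutamine synthetase of astrocytes, was at 626 to 807 RPKM in KO and 641 to 876 in WT libraries, with a log2 fold change of -0.25 (SE 0.0573, adjusted p of 0.0335). Of the 8 astrocyte markers 0 passed in this comparison and 2 had an unadjusted p under 0.05, where 14.1% of all genes did. The median log2 fold change of the 8 was -0.096, and they summed to 308 to 382 RPKM in KO and 339 to 415 in WT libraries. Of the 6 microglial markers 1 was lower in KO, as was 1 of 10 tested medium spiny neuron markers and 1 of 10 interneuron markers. The part of astrocytes in these values was not tested. The alternative settings were not examined for Slc1a3 and Glul.

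In the hippocampus Slc32a1 and Gad1 had an unadjusted p under 0.05, each in 1 comparison of KO with WT. For Slc32a1 this was the average over diets, where 4.24% of all genes did so. For Gad1 it was the lacking diet, where 6.02% of all genes did so. Slc32a1 was at 4.48, 4.61, 5.67, 5.85 and 6.10 RPKM in WT mice on the normal diet and at 3.92, 5.196, 5.88, 6.01 and 6.34 in WT mice on the lacking diet. In KO mice it was at 5.74, 5.93, 6.09, 6.81 and 7.08 on the normal diet and at 5.52, 5.72, 6.11, 6.42 and 7.44 on the lacking diet, so that the genotypes overlapped. The log2 fold change of Slc32a1 for KO against WT averaged over diets was 0.22 (SE 0.0868, unadjusted p of 0.0180, edgeR adjusted p of 1.00). Gad1 on the lacking diet was at 44.7, 45.7, 46.8, 47.2 and 50.3 RPKM in WT mice and at 48.1, 50.6, 51.5, 51.7 and 55.6 in KO mice, with 1 WT library above the lowest KO library (log2 fold change 0.17, SE 0.0697, unadjusted p of 0.0251, edgeR adjusted p of 0.769).

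Whether these effects differed between regions was tested directly, and 0 of 6 genes passed in any of the 6 tests. The background was 0% for the diet effect in each pair of regions, 0% for the genotype effect in striatum against PFC and in striatum against hippocampus, and 0.00718% in hippocampus against PFC. At an unadjusted p under 0.05, the genotype effect was higher in the striatum than in the PFC for Gad1 by 0.15 (SE 0.0675) and for Gad2 by 0.20 (SE 0.0893), with edgeR adjusted p of 0.524 and 0.534. For Slc32a1 it was higher in the hippocampus than in the PFC by 0.30 (SE 0.135) and lower in the striatum than in the hippocampus (-0.31, SE 0.128), with edgeR adjusted p of 0.799 and 0.735. At an unadjusted p under 0.05 the share of all genes was 9.18% in striatum against PFC. It was 6.03% in hippocampus against PFC and 5.81% in striatum against hippocampus.

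The spread between mice of 1 group differed from gene to gene. The SD of log2 CPM (the log2 of counts scaled to the library size) within groups was 0.0557 in the PFC, 0.0697 in the striatum and 0.0776 in the hippocampus for Aldh5a1, where genes of like level had medians of 0.121, 0.140 and 0.134. For Gad1 it was 0.0842, 0.118 and 0.105, against 0.109, 0.144 and 0.126. Gad2 varied more than genes of like level in all 3 regions, at 0.129, 0.157 and 0.143 against 0.109, 0.133 and 0.126. Abat was at 0.112, 0.0958 and 0.102 against 0.112, 0.138 and 0.128. Slc6a11 was below the genes of like level in the PFC (0.102 against 0.128) and hippocampus (0.130 against 0.140) and above them in the striatum (0.205 against 0.160). Slc32a1 had the widest spread, at 0.217, 0.218 and 0.186 against 0.195, 0.152 and 0.211, on 108 to 1197 counts a library, with a counting error of 7.13%, 3.76% and 7.61% of its mean in the 3 regions.

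Within groups, Gad1 and Gad2 varied together. Over the 20 libraries of a region, with group means subtracted, their log2 CPM correlated at Pearson's r of 0.79 in the PFC (permutation p of 2e-05), 0.83 in the striatum and 0.86 in the hippocampus (both 0.00001, the smallest p the 100000 permutations allow; Benjamini-Hochberg adjusted over 27 relations, 0.00018, 0.000135 and 0.000135). Spearman's rho was 0.71, 0.85 and 0.80 (permutation p of 0.00074, 0.00001 and 7e-05; adjusted, 0.00666, 0.00027 and 0.000945). The permutations moved values across the 4 groups of a region and did not allow for the subtracted group means. These p and those of the relations below are therefore somewhat too small. Without the 2 libraries farthest from the median of Gad1, r was 0.65, 0.74 and 0.72. Within WT mice, which are batch 2, r was 0.92, 0.85 and 0.92 (n = 10 a region), and within KO mice, which are batch 1, 0.47, 0.81 and 0.58.

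Gad2 and Abat, the enzymes that make and remove GABA, varied in opposite directions in the cortex and hippocampus. Pearson's r was -0.68 in the PFC (permutation p of 0.00129, adjusted 0.00697) and -0.77 in the hippocampus (0.00012, adjusted 0.00081), with Spearman's rho of -0.63 and -0.62 (permutation p of 0.00392 and 0.00368, both adjusted to 0.0176). Without the 2 libraries farthest in Gad2, r was -0.46 and -0.56. Within WT mice r was -0.74 and -0.86 and within KO mice -0.56 and -0.48. In the striatum r was -0.52 and did not pass (permutation p of 0.0183, adjusted 0.0654; rho of -0.43, p of 0.0572, adjusted 0.154). With all variation kept, Slc32a1 correlated with neither decarboxylase after adjustment (r between -0.33 and 0.30, adjusted p between 0.292 and 0.998). In the striatum Gad2 correlated with the interneuron markers at r = -0.62 (permutation p of 0.00367, adjusted 0.0165; rho of -0.66, p of 0.00223, adjusted 0.0151), at -0.62 without the 2 farthest libraries, and at -0.54 within WT and -0.71 within KO mice. The other relations of Gad2 with markers of GABA neurons, and those of Slc6a11 with astrocyte markers, had adjusted p for r of 0.0654 or more; in the striatum Slc6a11 and astrocyte markers had r of 0.52 and rho of 0.58, the latter with an adjusted p of 0.0322.

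**Figure D5:**
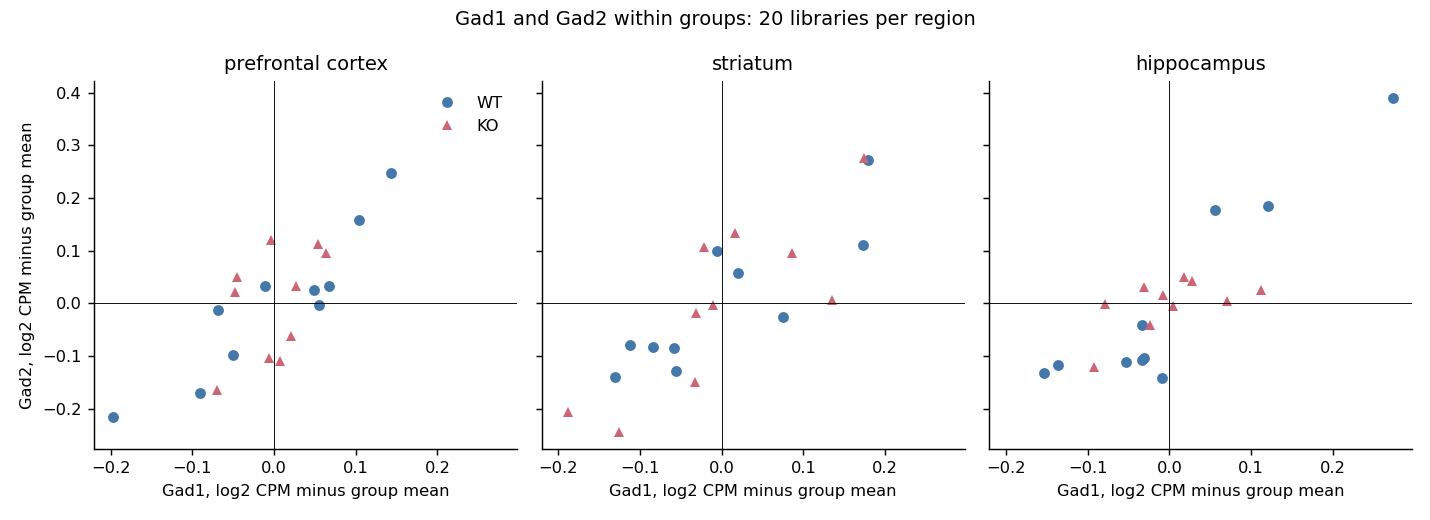
Gad1 (horizontal) and Gad2 (vertical) as log2 CPM minus the mean of the library's group, in 20 libraries for each region; circles are WT and triangles KO mice. Points rise together in each region, at r of 0.79, 0.83 and 0.86, and the hippocampal library farthest to the upper right is that of WT mouse 286.

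Many genes shared part of this variation. The first principal component of the deviations of all 13930 genes from their group means held 16.0% of the variance in the PFC, 25.5% in the striatum and 25.9% in hippocampus, and Gad2 correlated with it at r = 0.78, 0.93 and 0.59. Gad1 correlated with it at 0.58, 0.69 and 0.34, and Slc6a11 at -0.67, -0.39 and -0.11. Abat correlated with it at -0.50, -0.68 and -0.29, Slc32a1 at -0.42, -0.40 and -0.51, and Aldh5a1 at 0.052, -0.061 and 0.16. RIN correlated with the component at 0.39, 0.31 and 0.39, and the log2 of the library's total count at 0.30, -0.41 and -0.18. Across the 13616 genes with a value, the loadings followed the GC content of the transcripts (Spearman's rho of -0.64, -0.69 and -0.55, as a description, since genes are not independent). Gad2 transcripts hold 44.8% GC, those of Aldh5a1 48.3%, Slc6a11 54.3% and Slc32a1 61.9%, against a median of 50.0%. Those of Gad1 (49.8%) and Abat (50.1%) lie near the median, though these genes correlated with the component in opposite directions. The part of GC content in the members' values was not tested. With the component removed, r of Gad1 and Gad2 was 0.66, 0.69 and 0.87, and r of Gad2 and Abat was -0.53, 0.45 and -0.77, so that the sign in the striatum turned. The relations that had not passed moved as well, in this setting chosen after the data were seen and with permutation p that are not adjusted. Slc32a1 then correlated with Gad1 at 0.48, 0.43 and 0.58 (p of 0.0337, 0.0607 and 0.00802), and with Gad2 at -0.0033, 0.28 and 0.74 (p of 0.989, 0.223 and 0.00014). With the interneuron markers, r of Gad2 was 0.22, -0.12 and 0.59 (p of 0.351, 0.620 and 0.00399), and with the medium spiny neuron markers 0.36, 0.53 and 0.079 (p of 0.121, 0.0163 and 0.742). For Slc6a11 and the astrocyte markers r was 0.53, 0.62 and -0.23 (p of 0.0174, 0.00327 and 0.329). What these relations show thus depends on whether the component is kept.

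The genes most like each member were named from all 13930 tested. Over the 60 libraries with group means subtracted, and as a description, the closest to Gad1 were Gad2 (Pearson's r of 0.83), Cntnap2 (0.77) and Diaph2 (0.77). Those to Gad2 were B4galt6 (0.89), Dnajb14 (0.89) and B230219D22Rik (0.88), those to Abat Ift172 (0.78), Sdha (0.78) and Mlec (0.76), and those to Slc32a1 Sez6 (0.82), Pianp (0.81) and Cx3cl1 (0.79). Aldh5a1 had no close neighbour, with Elf4 (0.48), Stat3 (0.47) and Cd38 (0.47), and Slc6a11 had Disp2 (0.63), Rims3 (0.62) and Iqsec3 (0.60). Gad2 was not among the 3 closest of Slc32a1, nor was any astrocyte marker among those of Slc6a11. These correlations share libraries and the component above. Ranked by Spearman's rho, 3 of the 3 closest genes were the same for Gad2 and Slc32a1 and 2 for Gad1 and Abat. Only 1 was the same for Aldh5a1 and 0 for Slc6a11. For each member all 3 stayed among the 20 closest by rho.

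Over the 12 group means, which differ mainly by region, the closest to Gad1 were Elmod1, Zswim6 and Myo3b (Pearson's r of 0.998 each). Those to Gad2 were Gprin3, Nexn and Strn (0.999 each), and those to Abat Pbx3 (0.999) and Dach1 (0.998). Those to Slc32a1 were Rasl10b, Rxrg and Itga9 (0.997 each), those to Aldh5a1 Rngtt (0.994), Frem2 (0.991) and Tfdp2 (0.990), and those to Slc6a11 Zfp423 (0.995) and Tmem215 (0.985). With 12 points in 3 sets this order is loose: ranked by Spearman's rho, none of the 3 closest genes was the same for Gad1, Gad2, Abat, Aldh5a1 or Slc32a1, and 2 of 3 were for Slc6a11.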

How the data were processed

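Poly(A) RNA of 60 tissue samples had been sequenced as 75-base single reads. Per the submitters' processing notes, the authors used STAR 2.7.1a, HTSeq 0.9.1 and the mm10 build; the role of each tool, the strand setting and the annotation of the counting are not given in the sources used here. The deposited tables hold raw counts per gene, whole numbers that the authors did not scale, and RPKM, which the authors computed per kilobase of gene. For the 6 genes the lengths recovered from both tables equalled the GENCODE M21 exon unions.

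Differences were tested on the counts in R 4.3.3 with edgeR 4.0.16 (TMM scaling, quasi-likelihood F-test, filterByExpr with a minimum count of 10 and total of 15, Benjamini-Hochberg adjustment over all genes tested, threshold 0.05). Genotype and diet were fitted in the 20 libraries of each region (13223, 13311 and 13393 genes in PFC, striatum and hippocampus), and regions in all 60 libraries (13930 genes). Alternatives were DESeq2 1.42.0, its size factors, library totals, other filters, RIN as a covariate, each mouse left out, the mouse as a replicate block, and limma 3.58.1 on log2(RPKM + 1) and log2(RPKM + 0.1) for genes above 0.1 RPKM. RPKM means, ratios and correlations were computed with Python 3.11.15, numpy 2.4.6, pandas 2.3.3 and scipy 1.17.1; correlations used log2 CPM with a prior count of 2. The code of the fits was run on simulated counts of independent genes with a single dispersion, without batch or shared component. That run checks the code and not how well the model describes these data. Replicates are separate mice, and no 2 libraries of a group differed by less than sampling noise (chi-square per gene of 1.97 to 27.6 over 120 pairs).

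The 3 libraries of a mouse share its labelled number, which pairs the regions. Over all genes their deviations from group means correlated at a mean of 0.0327 (PFC and striatum), 0.0369 (PFC and hippocampus) and 0.0709 (striatum and hippocampus), against -0.0079, -0.0084 and -0.017 for other pairs of the same groups. Within a region no mice are paired.

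The members, the gene lists and the tests were chosen with earlier results of these data known. All 6 genes are named throughout. In a genotype or diet comparison a fold change and p are given where the unadjusted p was under 0.05. Of the other pathway genes, those that passed for genotype or diet and the 5 largest changes that passed between regions are named, and for each member the 3 genes with the highest Pearson's r. Some genes this rule selects are not reported here.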

Additional observations from a re-analysis of the deposited data

Results flagged for a closer look

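In 6 of 72 groups of 5 mice (6 genes, 3 regions, 4 groups), the highest or lowest library stood off from the other 4 by more than 0.71 of the group's range (Dixon's 95% critical value); chance alone gives about 1 group in 20. Gad2 was at 205 RPKM in the striatum of the normally fed WT mouse 273, where the other 4 lay between 170 and 174. In the hippocampus Gad2 was at 70.2 RPKM in the normally fed WT mouse 286, against 51.0 to 56.1, and at 53.0 in the VB6-lacking KO mouse 325, against 58.8 to 59.4. Abat was at 25.8 RPKM in the hippocampus of mouse 286, against 32.7 to 35.2, so that this library was high in Gad2 and low in Abat. Aldh5a1 was at 25.6 RPKM in the hippocampus of the normally fed KO mouse 381, against 23.3 to 23.9. Slc32a1 was at 4.601 RPKM in the PFC of the normally fed KO mouse 368, against 6.94 to 7.43.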

How the results depend on the processing

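Between the striatum and the other regions all 6 genes passed in the same direction under every alternative run. Between hippocampus and PFC, 3 genes passed, and 5 did with RIN as a covariate. Abat passed in 6 settings (adjusted p of 0.00434 to 0.0465) and without WT mouse 226, 259 or 286 (edgeR, 0.0287 to 0.0478), Slc6a11 passed in 4 (0.0138 to 0.0200), and Slc32a1 did not in 3 (0.0652 to 0.0757). Gad2 there changed sign on library totals (0.0231) and with limma (0.0223 with a pseudocount of 1 and 0.0226 with 0.1). The mouse as a replicate block changed no member's call (6, 3 and 6 genes passed). For diet and genotype 0 of 6 genes passed in all settings, except 1 (Slc6a11) with DESeq2 for KO against WT on the lacking diet in the PFC; leaving out each mouse in turn gave 0 throughout. No paired analysis was possible within a region because the groups hold different mice. Counts over all genes moved more. For KO against WT averaged over diets they were 89 in the PFC (69 to 215 over the settings), 27 in the striatum (26 to 40) and 22 in the hippocampus (5 to 41); on the lacking diet 31 (18 to 85), 17 (3 to 30) and 9 (2 to 19); on the normal diet 16 (13 to 21), 8 (5 to 16) and 4 (2 to 8); and for VB6-lacking KO against normally fed WT mice 37 (18 to 130), 11 (7 to 25) and 2 (2 to 15). The cause of these changes was not tested. Removal of the first component, the principal transcript lengths and the choroid plexus setting were chosen after the data were seen. The 5 mice a group limit what a missed difference means, and Slc32a1 is the least deeply counted.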

Other observations

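Beside the glutamate decarboxylases, 2 genes for other decarboxylases of the same cofactor family were measured; they were chosen after their values were seen. Csad, which makes hypotaurine on the way to taurine, was at 3.97 ± 0.559 RPKM (SD, n = 20) in the PFC, 4.07 ± 0.54 in the striatum and 4.54 ± 0.733 in the hippocampus. Gadl1, a decarboxylase close to Csad in sequence, averaged 0.131, 0.159 and 0.142 RPKM, far below Gad1 and Gad2 on the same scale.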
